A study of Homo sapiens with 12 samples.

Results

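The genes described here act in fatty acid synthesis, activation, modification, oxidation and storage. They were chosen by symbol, from a list of 43 genes. Of these, 42 matched a row among the 63677 gene rows of each count file, and 41 had at least 10 counts summed over the libraries, the minimum that kept 26156 genes for the test. By role, the list held 6 genes of synthesis, 5 desaturases, 5 elongases, 6 genes of activation, 10 of mitochondrial oxidation, 3 of peroxisomal oxidation and 8 of storage as triglyceride. ACACA, the acetyl-CoA carboxylase of the cytosol, could not be matched by identifier and has no value here.

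Fatty acids are built in the cytosol from acetyl-CoA, which ATP citrate lyase (ACLY) makes from citrate and which fatty acid synthase (FASN) joins into palmitate. Palmitate is then lengthened by ELOVL elongases and given double bonds by SCD and FADS desaturases. Before a fatty acid can enter a lipid or be burned, a long-chain acyl-CoA synthetase (ACSL) must couple it to coenzyme A, after which carnitine palmitoyltransferases carry it into mitochondria for β-oxidation, or acyltransferases place it in triglyceride. Prostate cancer cells are known for lipid synthesis that responds to androgen through the androgen receptor.

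RNA-seq was measured in LNCaP, an established prostate cancer cell line that expresses the androgen receptor. A TALEN pair, an engineered nuclease, had been used to delete the CTG start codon of Bag-1L, the longest protein made from BAG1 and a cochaperone of the androgen receptor, and this Bag-1L KO line was compared with a TALEN control line made with vector. Cells of both lines were kept in full medium (FM, with fetal bovine serum), or was deprived of hormone for 72 h in charcoal/dextran-treated serum and then given ethanol vehicle (EtOH) or 10 nM dihydrotestosterone (DHT), an androgen, for 16 h. The labels gave 12 samples in 6 groups of 2 replicates. According to the study's methods, transiently transfected cells were selected with G418 and single clones were isolated by dilution, so a difference between the lines cannot be told apart from a difference between clones.

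The gene counts of a library summed to between 20826843 and 30354666, at which 3 counts, taken as the floor of detection, equal 0.0988 to 0.144 CPM (counts scaled to a common total). The 2 Control EtOH replicates differed more than those of any other group (median absolute log2 difference of 0.238, against 0.0765 to 0.172), and counts without Control EtOH replicate 2 are given beside the results. The summed level of 8 luminal prostate markers was 1644 to 3154 TPM (reads per exon length, scaled to a common total), while 3 basal markers summed to 0.115 to 2.09 TPM and 3 leukocyte markers to at most 0.192 TPM. Of markers of tissues rich in fatty acid metabolism, 4 adipocyte genes summed to 0.123 to 0.756 TPM, whereas 3 hepatocyte genes summed to 49.6 to 115 TPM, nearly all of it TTR and ALB. ALB was at 11.3 to 12.1 TPM in the EtOH libraries, 4.63 to 5.62 in DHT and 24.6 to 33.8 in FM, and TTR at 82.1 to 101 TPM in EtOH, 55.8 to 66.4 in DHT and 21.9 to 36.4 in FM. Fibroblast markers summed to 7.47 to 15.6 TPM, nearly all of it COL1A1, with DCN at 0.0125 to 0.0898 TPM. The part of these transcripts in the results was not tested. BAG1 mRNA was counted at 1701 to 2703 normalised reads in the control libraries and 1075 to 1576 in the KO libraries. It was lower in KO than in control under EtOH (1.92-fold, adjusted p = 6.35e-06) and DHT (2.21-fold, adjusted p = 7.71e-09) and did not pass under FM (1.35-fold lower, adjusted p = 0.0682), although mRNA carrying the deletion can still be counted, so the loss of the protein is not checked by it. Fewer cells of a type and less RNA per cell cannot be told apart in such bulk libraries.

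The first question was how androgen changed these genes in either line. A gene is said to have risen, fallen or differed when DESeq2 gave an adjusted p of at most 0.05 and a fold change of at least 1.5. With DHT in the control line, 12 of the 41 fatty acid genes rose, beside 6.04% of all genes tested, and 4 fell, beside 5.37%. In the KO line 10 of 41 rose, beside 4.43%, and 1 fell, beside 3.24%. All 10 genes that rose in KO also rose in control, where they made up 83.3% of those that rose. The same overlap was not computed over all genes. The median log2 fold change of the members was 0.09 in control and 0.08 in KO, close to the medians of all genes tested (-0.02 and -0.01). Without Control EtOH replicate 2, 11 rose and 4 fell in control. Where a count of genes at an unadjusted p under 0.05 is given, the share of all genes at that p was not computed. By role, the shares were not tested against each other. Of the 5 elongases 4 rose in either line, of the 5 desaturases 3 in control and 2 in KO, of the 6 activation genes 2 in either line, and of the 5 synthesis genes 1 in either line. Of the 9 tested genes of mitochondrial oxidation 1 rose in either line, of the 3 peroxisomal genes 1 in control and none in KO, and none of the 8 storage genes rose with DESeq2 or edgeR, although 3 in control and 2 in KO had a positive fold at an unadjusted p under 0.05.

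**Figure D1:**
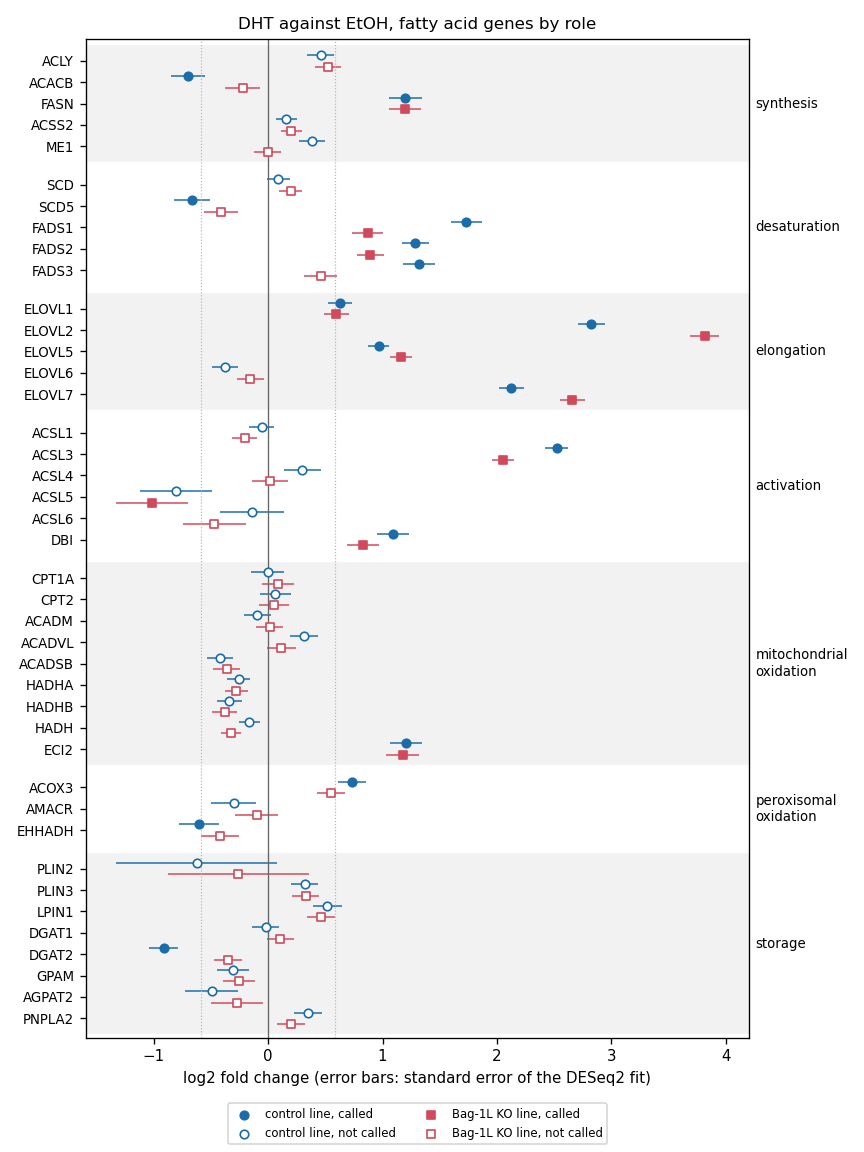
Log2 fold change of DHT against EtOH (horizontal axis) for each of the 41 fitted fatty acid genes, grouped by role, in the control line (circles) and the Bag-1L KO line (squares). Bars are standard errors of the DESeq2 fit, filled points passed both thresholds and dotted lines mark a 1.5-fold change. The elongases except ELOVL6, the FADS desaturases and ACSL3 lie to the right, ELOVL2 reaching 2.82 in control and 3.81 in KO. All mitochondrial oxidation genes except ECI2 lie between the dotted lines.

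In synthesis the gene that rose was FASN (chr17:80036214-80056170 on GRCh37, minus strand), the multienzyme that makes palmitate. Its normalised read count was 26506 and 29940 in Control EtOH, and 70835 and 58864 in Control DHT. In KO it was 21675 and 27925 with EtOH, and 56539 and 57187 with DHT. The DHT libraries of both lines lay above all EtOH libraries, and the rise was 2.30-fold in control (log2 1.20 ± 0.14 SE, n = 2 per group, adjusted p = 1.03e-15) and 2.29-fold in KO (log2 1.20 ± 0.14, adjusted p = 1.52e-15). The difference between these responses was -0.003 ± 0.20 on the log2 scale (adjusted p = 1). ACLY, which supplies the acetyl-CoA, had folds of 1.37 in control and 1.44 in KO with adjusted p of 0.000941 and 0.000171, below the 1.5-fold minimum. ACSS2, which makes acetyl-CoA from acetate, stood at 1.12-fold in control and 1.15-fold in KO. ACACB, the acetyl-CoA carboxylase of the mitochondrial surface, whose product malonyl-CoA restrains carnitine palmitoyltransferase, fell 1.63-fold in control (adjusted p = 4.61e-05) and did not pass in KO (1.17-fold lower), although the difference between the lines did not pass either (log2 0.48 ± 0.21, adjusted p = 0.907).

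The FADS genes encode desaturases that lie side by side on chromosome 11. FADS1 (chr11:61567099-61596790, minus strand) is the delta-5 desaturase of long polyunsaturated fatty acids. Its normalised read count was 2851 and 2267 in Control EtOH, 9348 and 7663 in Control DHT, 2654 and 2968 in KO EtOH, and 5307 and 4972 in KO DHT. EtOH levels overlapped between the lines, and both KO DHT libraries lay below both Control DHT libraries. The rise was 3.32-fold in control (log2 1.73 ± 0.13, adjusted p = 6.87e-36) and 1.83-fold in KO (log2 0.87 ± 0.13, adjusted p = 3.97e-09). The difference in DHT response passed, at -0.86 ± 0.19 on the log2 scale (adjusted p = 0.00315). FADS2 (chr11:61560452-61634826, plus strand), the delta-6 desaturase that opens the same path, rose from 19603 and 19005 to 52396 and 41788 in control, and from 17949 and 19879 to 34083 and 36103 in KO. These were 2.44-fold and 1.86-fold rises (adjusted p = 3.02e-26 and 1.25e-12), and their difference did not pass (log2 -0.40 ± 0.17, adjusted p = 0.803). FADS1 and FADS2 overlap on opposite strands over 4.79% of the exon length of FADS1, and the strand setting of the counting was not given in the sources used here.

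FADS3 (chr11:61640991-61659523, minus strand) is the third desaturase of the cluster. It was counted at 916 and 1172 in Control EtOH, 2634 and 2577 in Control DHT, 879 and 831 in KO EtOH, and 1071 and 1282 in KO DHT. Control DHT stood apart from every other group. The gene rose 2.50-fold in control (log2 1.32 ± 0.14, adjusted p = 7.65e-19), whereas in KO its fold of 1.38 was under the minimum (log2 0.46 ± 0.14, adjusted p = 0.0141). The difference in response was -0.86 ± 0.20 (adjusted p = 0.00811). For both FADS1 and FADS3 this difference did not pass with edgeR (adjusted p = 0.106 and 0.129) or when only the hormone-deprived libraries were fitted (0.144 and 0.186). It also did not pass for FADS1 without KO EtOH replicate 2, Control DHT replicate 1 or KO DHT replicate 2, and for FADS3 it was lost on leaving out either KO EtOH library, either Control DHT library or KO DHT replicate 1. SCD, the stearoyl-CoA desaturase that makes oleate, had folds of 1.06 in control and 1.15 in KO, and SCD5, its relative, fell 1.59-fold in control (adjusted p = 0.000187, and 0.0581 when only the groups compared were fitted) and was 1.33-fold lower in KO.

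Elongases add carbon pairs to fatty acyl-CoA. ELOVL2 (chr6:10980992-11044538, minus strand), which lengthens polyunsaturated chains, showed the largest rise of any member. Its normalised read count was 761 and 706 in Control EtOH and 5518 and 4878 in Control DHT. In KO it was 318 and 337 with EtOH and 4811 and 4402 with DHT. The lines were apart under EtOH, where both KO libraries were lower, and both KO DHT libraries lay below both Control DHT libraries by a smaller ratio. The rise was 7.08-fold in control (log2 2.82 ± 0.12, adjusted p = 4.14e-126) and 14.1-fold in KO (log2 3.81 ± 0.13, adjusted p = 4.08e-202), with a difference of 0.99 ± 0.17 (adjusted p = 9.29e-06) that passed under all alternatives run. ELOVL7, an elongase of saturated and very long chains (chr5:60047618-60140101, minus strand), rose from 814 and 785 to 3502 and 3465 in control, and from 730 and 831 to 5155 and 4725 in KO. Its rises were 4.36-fold and 6.32-fold (adjusted p = 1.06e-79 and 3.70e-125), and their difference, 0.54 ± 0.16, did not pass (adjusted p = 0.1).

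ELOVL5, which acts on the polyunsaturated path with the FADS enzymes, rose 1.95-fold in control and 2.24-fold in KO (adjusted p = 1.47e-23 and 1.08e-33). ELOVL1, an elongase of saturated very long chains, rose 1.55-fold and 1.51-fold (adjusted p = 1.54e-07 and 1.09e-06), close to the minimum. In control its fold fell under 1.5 without Control EtOH replicate 2 or Control DHT replicate 1, and in KO without KO EtOH replicate 1 or KO DHT replicate 2 and with a filter of 10 counts in every sample. ELOVL6, which takes palmitate to stearate, was 1.30-fold lower with DHT in control and 1.11-fold lower in KO, neither of which reached 1.5-fold.

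The response of activation was led by ACSL3 (chr2:223725660-223809357, plus strand), an acyl-CoA synthetase of the endoplasmic reticulum and of lipid droplets. It was counted at 9374 and 8764 in Control EtOH, and at 51522 and 52622 in Control DHT. Counts in KO were 7235 and 7614 with EtOH, and 32531 and 29174 with DHT. No DHT library of a line overlapped its EtOH libraries, and both KO DHT libraries were below both Control DHT libraries. The rise was 5.74-fold in control (log2 2.52 ± 0.10, adjusted p = 4.86e-147) and 4.16-fold in KO (log2 2.06 ± 0.10, adjusted p = 3.69e-97). The difference of -0.47 ± 0.14 did not pass (adjusted p = 0.107). DBI, which encodes the acyl-CoA binding protein that holds the activated chain, rose 2.13-fold in control and 1.77-fold in KO (adjusted p = 1.70e-13 and 9.32e-08). ACSL5, which is read at only 33.9 to 81.4 normalised counts, fell 2.02-fold in KO (adjusted p = 0.0135) and was 1.75-fold lower in control with an adjusted p of 0.0504. Its fall in KO no longer passed when any 1 of the 4 hormone-deprived KO libraries was left out. ACSL1, ACSL4 and ACSL6 did not pass in either line.

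**Figure D2:**
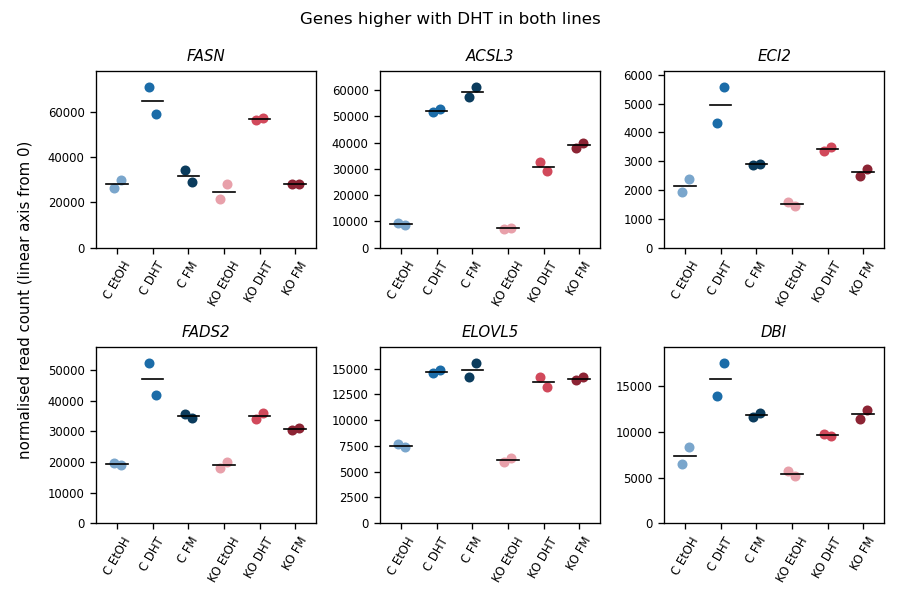
Normalised read count (vertical axis, linear from 0) of FASN, ACSL3, ECI2, FADS2, ELOVL5 and DBI in the 12 libraries, by group on the horizontal axis (C, control line; KO, Bag-1L KO line); points are the 2 replicates and black lines their mean. All 6 genes were higher with DHT than with EtOH in both lines, and ACSL3 reached 51522 to 52622 in Control DHT against 29174 to 32531 in KO DHT.

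Of the genes of mitochondrial oxidation 1 passed with DHT, ECI2 (chr6:4115927-4135831, minus strand), an isomerase that prepares unsaturated chains for β-oxidation. It was counted at 1918 and 2374 in Control EtOH, 4341 and 5565 in Control DHT, 1595 and 1441 in KO EtOH, and 3351 and 3503 in KO DHT. The DHT libraries were higher in both lines, by 2.31-fold in control (log2 1.21 ± 0.14, adjusted p = 6.42e-16) and 2.26-fold in KO (log2 1.18 ± 0.14, adjusted p = 8.13e-15). Other annotated genes cover 29.8% of its exon length on the opposite strand. CPT1A, the gate of mitochondrial import, had a log2 fold change near 0 in control and 1.06-fold in KO, and CPT2, ACADM, ACADVL, ACADSB and HADH all stayed within 1.5-fold. Of the 9 tested genes, 5 in each line had an unadjusted p under 0.05 (2 higher and 3 lower in control, 1 and 4 in KO). In control ACADSB had the lowest log2 fold change of the role, at -0.42, while mean normalised counts of ACADVL went from 11379 to 14148. HADHA and HADHB, the subunits of the trifunctional protein, had adjusted p of 0.049 and 0.0139 in control at folds of 1.20 and 1.27 lower, and 0.0386 and 0.00628 in KO at 1.21 and 1.30 lower. DECR1, the reductase for polyunsaturated chains, had 0 to 3 counts in the 12 libraries and 0 in 9 of them, which does not exceed the floor. No comparison was made for it, and whether its row is complete was not tested.

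Among the peroxisomal genes, ACOX3, an acyl-CoA oxidase of branched chains (chr4:8368009-8442450, minus strand), rose from 481 and 481 to 770 and 828 in control. The KO libraries held 546 and 530 with EtOH and 782 and 794 with DHT. The groups did not overlap in either line, but the control fold of 1.66 passed (adjusted p = 6.68e-08) and the KO fold of 1.46 was under the minimum (adjusted p = 0.000131), and the 2 responses differed by -0.18 ± 0.17 (adjusted p = 1). EHHADH, the peroxisomal bifunctional enzyme (chr3:184908412-184999778, minus strand), was counted at 304 and 269 in Control EtOH, 205 and 172 in Control DHT, 439 and 501 in KO EtOH, and 379 and 322 in KO DHT. It fell 1.52-fold in control (adjusted p = 0.00497), which did not hold without Control EtOH replicate 1 or Control DHT replicate 2 or when only the groups compared were fitted, and was 1.34-fold lower in KO. AMACR, a racemase of branched chains, shares 61.4% of its exon length with a read-through gene on the same strand, so its reads can be left uncounted as ambiguous, and its low counts of 80.7 to 245 are uncertain.

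In storage 1 gene passed. DGAT2, which joins the last acyl chain to triglyceride (chr11:75470557-75512580, plus strand), was counted at 1085 and 967 in Control EtOH and 572 and 516 in Control DHT. The KO line had 1131 and 1188 with EtOH and 859 and 964 with DHT. Control DHT was the lowest group, and the fall was 1.88-fold in control (log2 -0.91 ± 0.13, adjusted p = 1.05e-11). In KO it was 1.27-fold lower, and the difference of 0.57 ± 0.17 did not pass (adjusted p = 0.162). LPIN1, a phosphatidate phosphatase, had folds of 1.43 in control and 1.38 in KO, and PLIN3, a lipid droplet coat protein, 1.25 and 1.26. GPAM, AGPAT2, DGAT1, PNPLA2 and PLIN2 did not pass, and PLIN2 held only 5 to 28 raw counts.

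Tested as such, the DHT response of the lines differed for 3 of 40 members. ELOVL2 had the larger rise in KO, beside 0.223% of all genes tested with a difference in that direction. FADS1 and FADS3 had the smaller rise in KO, beside 0.185%. The median difference of the members was -0.01 and that of all genes tested -0.004. In every activation gene the KO response was the lower, with differences of -0.15 to -0.47 on the log2 scale, but none of these 6 differences passed with DESeq2 or edgeR, and 1 (ACSL3) had an unadjusted p under 0.05. The share of all genes with a lower response in KO was not computed. The count of 3 became 4 without Control EtOH replicate 2, and 1 with edgeR, with only the groups compared, and without KO EtOH replicate 2 or Control DHT replicate 1.

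**Figure D3:**
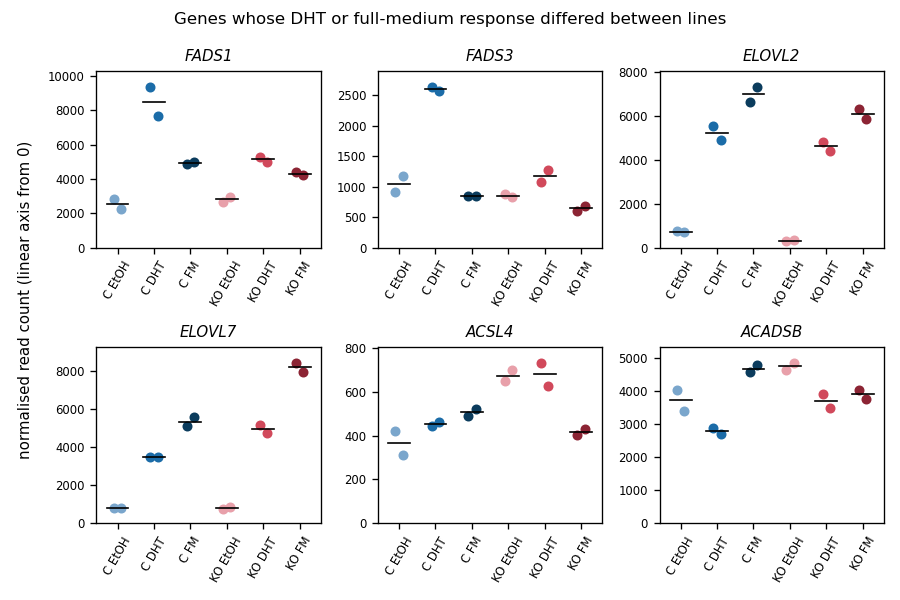
Normalised read count (vertical axis, linear from 0) of the 6 genes whose response to DHT or to full medium differed between the lines, by group (C, control line; KO, Bag-1L KO line); points are the 2 replicates and black lines their mean. FADS1 and FADS3 are highest in Control DHT, ELOVL2 is lowest in KO EtOH at 318 and 337, and ACSL4 is higher in KO EtOH and KO DHT than in all control groups.

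The next question was how the lines differed under the same condition. Under EtOH, 2 of 41 members were higher in KO, beside 2.8% of all genes tested, and 2 were lower, beside 2.31%. Under DHT, 4 were higher, beside 4.66%, and 6 lower, beside 3.32%. Under FM, 2 of 40 were higher, beside 5.41%, and 3 lower, beside 2.6%. The shares of members higher in KO were 4.88%, 9.76% and 5.00%, and of those lower 4.88%, 14.6% and 7.50%. The median log2 difference was -0.02, -0.09 and -0.15, against -0.01, -0.02 and -0.01 for all genes tested. The EtOH comparison had 3 higher and 2 lower without Control EtOH replicate 2, and 2 higher and 4 lower without Control EtOH replicate 1. In all 3 conditions 1 gene, ELOVL6, was lower in KO, and no gene was higher in all 3.

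ELOVL6 (chr4:110967002-111120355, minus strand), the elongase that takes palmitate to stearate, was counted at 2449 and 2179 in Control EtOH, at 1789 and 1772 in Control DHT and at 2221 and 2261 in Control FM. Counts in KO were 1165 and 1258 with EtOH, 1103 and 1077 with DHT, and 1055 and 915 in FM. All 6 KO libraries lay below all 6 control libraries. The KO level was 1.91-fold lower under EtOH (log2 -0.93 ± 0.11, adjusted p = 8.48e-14), 1.63-fold lower under DHT (-0.71 ± 0.12, adjusted p = 4.33e-08) and 2.27-fold lower under FM (-1.18 ± 0.12, adjusted p = 4.14e-22). ELOVL2 was 2.24-fold lower in KO under EtOH (adjusted p = 8.95e-17), but 1.12-fold lower under DHT and 1.15-fold lower under FM, which did not pass. ELOVL7 was 1.54-fold higher in KO under FM (adjusted p = 2.55e-07), a fold that fell under 1.5 without Control FM replicate 1 or KO FM replicate 1.

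ME1, the malic enzyme (chr6:83920121-84140770, minus strand), makes NADPH, which FASN uses. It was counted at 1843 and 1965 in Control EtOH, at 2369 and 2596 in Control DHT and at 2527 and 2782 in Control FM. The KO libraries held 1417 and 1462 with EtOH, 1535 and 1338 with DHT, and 1485 and 1633 in FM. All KO libraries were below all control libraries. The difference was 1.73-fold under DHT (log2 -0.79 ± 0.12, adjusted p = 1.40e-09) and 1.70-fold under FM (-0.77 ± 0.12, adjusted p = 5.91e-09), while under EtOH it was 1.32-fold. FASN was 1.14-fold lower in KO under EtOH and DHT and 1.13-fold lower under FM, and did not pass. All 5 synthesis genes had a negative log2 difference under EtOH and FM, with medians of -0.28 and -0.38, and 4 of the 5 had one under DHT, with a median of -0.19 and ACACB at 0.20. Of these, ME1 passed under DHT and FM. The share of all genes with a negative difference was not computed, and the median of all genes tested was -0.01 under EtOH and FM and -0.02 under DHT.

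Under DHT the desaturases FADS3 and FADS1 were lower in KO, by 2.22-fold (log2 -1.15 ± 0.14, adjusted p = 6.39e-14) and 1.65-fold (-0.73 ± 0.13, adjusted p = 2.15e-06), and SCD5 was 1.59-fold higher (adjusted p = 0.000291). The FADS1 fold fell under 1.5 without Control DHT replicate 1. No desaturase passed under EtOH or FM with DESeq2 or edgeR, and 3 and 2 of the 5 had an unadjusted p under 0.05. Of the activation genes, ACSL3 was 1.69-fold lower in KO under DHT (adjusted p = 6.14e-13) and 1.51-fold lower under FM (adjusted p = 4.38e-08), with 57252 and 61059 counts in Control FM and 38098 and 40022 in KO FM. The FM fold was under 1.5 with edgeR, with TMM size factors, and without Control FM replicate 2 or KO FM replicate 1. DBI was 1.63-fold lower in KO under DHT (adjusted p = 1.03e-05), which fell under 1.5-fold without Control DHT replicate 2.

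ACSL4 (chrX:108867473-108976632, minus strand), the synthetase that prefers arachidonate, moved the other way. It was counted at 423 and 313 in Control EtOH, at 444 and 461 in Control DHT and at 493 and 524 in Control FM. The KO line had 649 and 699 with EtOH, 735 and 629 with DHT, and 405 and 431 in FM. The KO libraries lay above the control libraries in EtOH and DHT and below them in FM. KO was 1.83-fold higher under EtOH (log2 0.87 ± 0.16, adjusted p = 2.87e-06) and 1.51-fold higher under DHT (0.59 ± 0.16, adjusted p = 0.00231), while under FM it was 1.22-fold lower and did not pass. The DHT value fell short without Control DHT replicate 1 or KO DHT replicate 1.

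In oxidation no mitochondrial gene passed between the lines under EtOH, DHT or FM with DESeq2 or edgeR. Of the 9, 4, 6 and 3 had an unadjusted p under 0.05, a share that was not computed for all genes. Their log2 differences were -0.53 to 0.41 under DHT. ECI2 was nearest the minimum, at 1.41-fold lower under EtOH and 1.45-fold lower under DHT. EHHADH was higher in KO, by 1.64-fold under EtOH (log2 0.72 ± 0.17, adjusted p = 0.000481) and 1.86-fold under DHT (0.90 ± 0.17, adjusted p = 7.62e-06). Under FM, control had 261 and 294 counts and KO 415 and 400, a fold of 1.47 under the minimum (adjusted p = 0.0095). The EtOH value did not hold without KO EtOH replicate 2. In storage, DGAT2 was 1.67-fold higher in KO under DHT (log2 0.74 ± 0.13, adjusted p = 1.58e-07).

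AGPAT2, which makes phosphatidate (chr9:139567595-139581909, minus strand), was counted at 784 and 1387 in Control EtOH, at 663 and 880 in Control DHT and at 299 and 294 in Control FM. Counts in KO were 1162 and 1228 with EtOH, 825 and 1157 with DHT, and 534 and 670 in FM. Its Control EtOH replicates were the farthest apart of this gene's groups. KO was 2.03-fold higher under FM (log2 1.02 ± 0.24, adjusted p = 0.00044), which did not hold without KO FM replicate 2 (adjusted p = 0.0658).

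**Figure D4:**
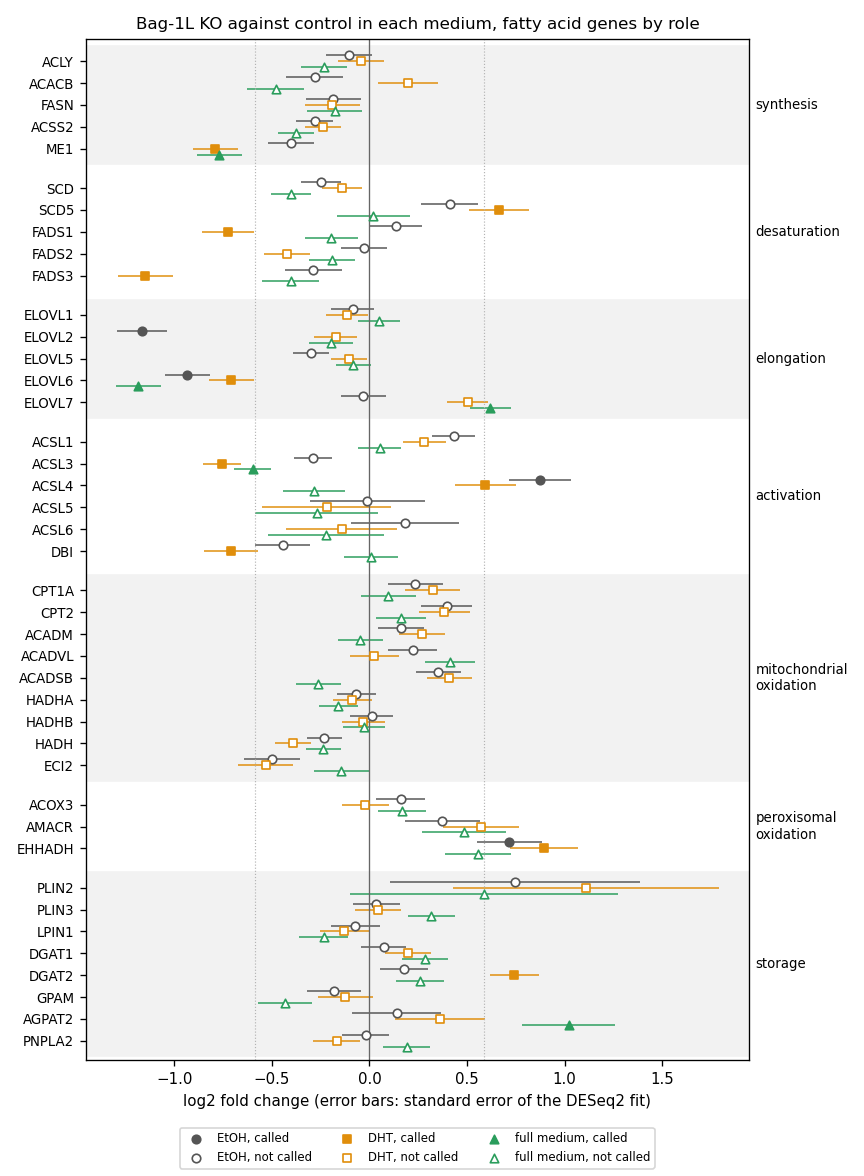
Log2 fold change of Bag-1L KO against control (horizontal axis) for each of the 41 fitted fatty acid genes, grouped by role, under EtOH (circles), DHT (squares) and full medium (triangles). Bars are standard errors of the DESeq2 fit, filled points passed both thresholds and dotted lines mark a 1.5-fold change; ELOVL6 lies at -0.71 to -1.18 in all 3 conditions and no mitochondrial oxidation gene passed.

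Full medium was compared with EtOH to see the genes under serum. The comparison changes both the serum and the starvation and shares its EtOH libraries with the DHT comparison, so the values are given side by side. In control 8 of 41 members were higher in FM, beside 9.81% of all genes tested, and 3 lower, beside 11.5%. In KO 9 were higher, beside 9.61%, and 6 lower, beside 9.68%. The medians were 0.07 in control and -0.07 in KO, against -0.01 in either line for all genes tested. Without Control EtOH replicate 2 the control count was 12.

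The elongases were again the role with the largest share higher in FM, 4 of 5 in either line. ELOVL2 was 9.50-fold higher in control and 18.6-fold higher in KO (7.08-fold and 14.1-fold with DHT), with counts of 6646 and 7300 in Control FM and 6310 and 5859 in KO FM. ELOVL7 was 6.67-fold and 10.5-fold higher, at 5093 and 5562 in Control FM and 8435 and 7933 in KO FM. ACSL3 was 6.52-fold and 5.26-fold higher (5.74-fold and 4.16-fold with DHT). FADS1 was 1.93-fold and 1.53-fold higher, the latter under 1.5-fold without KO EtOH replicate 1. FADS2 was 1.81-fold and 1.62-fold higher, and FADS3, at 847 and 857 in Control FM and 601 and 688 in KO FM, did not pass in either line.

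FASN, which rose with DHT, was 1.12-fold and 1.13-fold higher in FM, at 34366 and 29110 in control and 28172 and 27969 in KO, and did not pass. SCD5 was 3.46-fold lower in control and 4.53-fold lower in KO (adjusted p = 2.19e-24 and 2.96e-37), and AGPAT2 was 3.66-fold and 1.99-fold lower. AMACR was 2.02-fold and 1.87-fold lower. In KO, ACSL1, ACSL4 and ACSL6 were also lower, by 1.56-fold, 1.61-fold and 1.65-fold, with ACSL1 under 1.5-fold without KO EtOH replicate 2, and ECI2 was 1.72-fold higher, at 2856 and 2919 in Control FM and 2502 and 2725 in KO FM. The ACSL6 call (adjusted p = 0.0404) rested on 80.3 and 82.8 normalised counts in KO EtOH against 46.6 and 52.6 in KO FM, and did not hold under most alternatives.

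The FM response differed between the lines for 4 of 40 members. ELOVL2 (log2 0.97 ± 0.17, adjusted p = 9.16e-06) and ELOVL7 (0.65 ± 0.16, adjusted p = 0.00512) had the larger value in KO, beside 0.748% of all genes tested. ACSL4 (-1.16 ± 0.23, adjusted p = 0.00013) and ACADSB (-0.62 ± 0.16, adjusted p = 0.0164) had the smaller, beside 0.64%. ACADSB, the dehydrogenase of short branched chains (chr10:124768495-124817806, plus strand), was counted at 4034 and 3413 in Control EtOH, at 2869 and 2700 in Control DHT and at 4569 and 4790 in Control FM. The KO libraries held 4649 and 4864 with EtOH, 3919 and 3476 with DHT, and 4033 and 3764 in FM. In control the FM libraries were above EtOH and in KO they were below. The ELOVL7 and ACADSB differences did not pass with edgeR (adjusted p = 0.0791 and 0.134) or without some single libraries, including Control EtOH replicate 2 for ACADSB (adjusted p = 0.0576).

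The levels per length were also summed by role. TPM, which divides counts by exon length, allows levels of different genes to be added, and is a description with no test. The 6 activation genes summed to 603 and 606 TPM in Control EtOH, 1334 and 1399 in Control DHT, 556 and 552 in KO EtOH, and 1057 and 933 in KO DHT. Most of it was ACSL3 and DBI, since ACSL3 alone went from 96.4 and 78.7 TPM in Control EtOH to 479 and 447 in Control DHT. Elongation summed to 588 and 484 TPM in Control EtOH, 1103 and 961 in Control DHT, 450 and 482 in KO EtOH, and 1167 and 1046 in KO DHT. Synthesis summed to 799 to 980 TPM in the 4 EtOH libraries and to 1315 to 1699 in the 4 DHT libraries. Mitochondrial oxidation summed to 1351 to 1394 TPM with EtOH in the control line, against 1271 to 1284 with DHT and 1215 to 1234 in FM. In the KO line it was at 1489 to 1567 TPM with EtOH, 1368 to 1450 with DHT and 1268 to 1304 in FM. In each line the DHT and FM libraries thus lay below the EtOH libraries in TPM without overlap, which was not tested. TPM is scaled to a common total and normalised read counts by size factors, so changes on these scales can differ. The sum was not computed from normalised read counts. The sum does not describe each gene. From Control EtOH to Control DHT the mean of HADHA went from 446 to 346 TPM and that of HADHB from 274 to 201. ECI2 went from 64.7 to 138 TPM and ACADVL from 326 to 376. As normalised read counts the same means went from 13964 to 11680 for HADHA and from 8473 to 6699 for HADHB. For ECI2 they went from 2146 to 4953 and for ACADVL from 11379 to 14148. Of the 9 tested genes, 3 in control and 5 in KO had a positive log2 fold change with DHT. The peroxisomal genes summed to 29.0 to 37.1 TPM in the control line and 42.5 to 50.2 TPM in KO, without overlap between the lines.

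**Figure D5:**
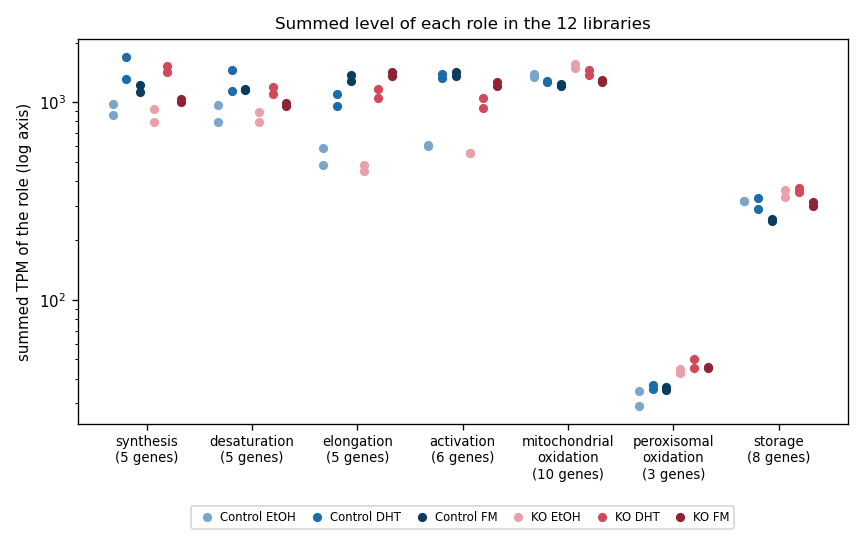
Summed TPM of each role (vertical axis, log scale) in the 12 libraries, coloured by group, with roles on the horizontal axis and the number of genes with a row in parentheses; each point is 1 library. The sums of synthesis, elongation and activation were higher with DHT than with EtOH in both lines. The sum of mitochondrial oxidation, at 1215 to 1567 TPM, was lower with DHT than with EtOH in both lines, although single genes such as ECI2 were higher. This holds for TPM, and the sum was not computed from normalised read counts, which are scaled differently.

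The promoters of the listed genes, whether or not they rose, were searched for 4 motifs. RefSeq windows on GRCh38.p14, a later build than that of the counts, were at hand for 38 of the 43 genes, with 64 windows of 250 bases before to 50 after a start. The search covered both strands. The sterol regulatory element core TCACNCCAC was in 3 of the 64 windows, those of ACSL1, ACSL6 and PNPLA2, against 1.13% of all 35116 windows. The E-box CACGTG was in 4 windows, of DBI, ELOVL5 and PLIN2, against 7.26%. The androgen receptor half-site AGAACA was in 5 windows, of ACSL1, ACSL5, ACSL6 and HADH, against 14.8%. The NF-Y box CCAAT was in 21 windows of 17 genes, against 34.6% of all windows. None of these motifs holds another within it. FASN, DECR1, EHHADH, DGAT1 and DGAT2 had no window. A match is a description of letters, not a site.

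Short stretches from 4 genes that rose with DHT in control, and from ACSL5, which fell with DHT in KO, are printed to show where these motifs sat, each 5′ to 3′ on the gene's own strand, with the motif in capitals. ATTGG is CCAAT read on the other strand. The stretches lie at chr2:222860941-222860985 (plus strand, CCAAT 75 bases before the start) for ACSL3, chr1:43368052-43368096 (minus strand, CCAAT at 65 bases) for ELOVL1, chr11:61891672-61891716 and chr11:61891644-61891688 (minus strand, CCAAT at 151 bases and ATTGG at 123 bases) for FADS3, chr6:53349136-53349181 (minus strand, CACGTG at 211 bases) for ELOVL5, and chr10:112376143-112376188 (plus strand, AGAACA at 42 bases) for ACSL5.
ACSL3 CCAAT: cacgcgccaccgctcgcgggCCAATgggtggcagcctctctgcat
ELOVL1 CCAAT: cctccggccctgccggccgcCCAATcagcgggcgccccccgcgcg
FADS3 CCAAT: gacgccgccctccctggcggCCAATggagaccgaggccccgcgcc
FADS3 ATTGG: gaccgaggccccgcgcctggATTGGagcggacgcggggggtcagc
ELOVL5 CACGTG: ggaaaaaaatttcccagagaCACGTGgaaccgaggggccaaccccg
ACSL5 AGAACA: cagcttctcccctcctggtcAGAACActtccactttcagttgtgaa

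The rest of the pathway was read from a list of 77 further genes of synthesis, uptake, oxidation and storage. With DHT in control 8 of 64 tested rose (12.5%, beside 6.04% of all genes) and 3 fell (4.69%, beside 5.37%), and in KO 8 rose (12.5%, beside 4.43%) and 2 fell (3.12%, beside 3.24%). Between the lines under EtOH 2 of 61 were higher in KO (3.28%, beside 2.8%) and 2 lower (3.28%, beside 2.31%). Under DHT 2 of 61 were higher (3.28%, beside 4.66%) and 4 lower (6.56%, beside 3.32%), and under FM 3 of 60 were higher (5.00%, beside 5.41%) and 4 lower (6.67%, beside 2.6%). In FM against EtOH 8 of 67 were higher in control (11.9%, beside 9.81%) and 9 lower (13.4%, beside 11.5%), and in KO 9 were higher (13.4%, beside 9.61%) and 8 lower (11.9%, beside 9.68%). Of the oxidation genes on this list 5 of 26 rose with DHT in control and 6 of 26 in KO, beside 6.04% and 4.43% of all genes. The largest rise in control was that of ACADL, the long-chain acyl-CoA dehydrogenase, which went from 8.56 and 5.97 normalised counts in Control EtOH to 63.6 and 65.6 in Control DHT, an 8.86-fold rise (adjusted p = 8.18e-11), and to 176 and 181 in Control FM. In KO it was at 0 and 0.941 with EtOH, under the floor, 37.9 and 32.9 with DHT, and 199 and 196 in FM.

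MOGAT2, an acyltransferase that makes diglyceride, rose from 50.4 and 53.7 to 341 and 260 in control with DHT, a 5.78-fold rise (adjusted p = 7.38e-26). CRAT, the carnitine acetyltransferase, fell 2.37-fold, from 164 and 185 to 86.8 and 60.5 (adjusted p = 1.27e-06), and was higher in KO under EtOH (1.90-fold, adjusted p = 0.000214) and DHT (3.32-fold, adjusted p = 1.99e-12). CROT, its peroxisomal relative for medium chains, was 1.96-fold lower in KO under EtOH (adjusted p = 2.06e-13), at 558 and 591 against 1186 and 1071. ACSM3, a medium-chain acyl-CoA synthetase, was 1.91-fold lower in KO under EtOH (adjusted p = 2.94e-16). Under DHT, PLIN4, a lipid droplet protein, was 3.06-fold higher in KO (adjusted p = 0.0109) at 10.1 to 37.9 counts, and GPAT3, an acyltransferase that opens triglyceride synthesis, was 2.25-fold lower (adjusted p = 0.00198). HACD1, a dehydratase of elongation, was 4.76-fold lower in Control FM than in Control EtOH (adjusted p = 4.60e-05).

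Of 16 regulators of lipid genes, 15 were tested. With DHT 2 rose (13.3%, beside 6.04% of all genes) and 1 fell (6.67%, beside 5.37%) in control, and 1 rose (6.67%, beside 4.43%) and 1 fell (6.67%, beside 3.24%) in KO. SCAP, the escort of the SREBP factors, rose in both lines, by 1.81-fold in control and 1.57-fold in KO (adjusted p = 2.83e-11 and 1.32e-06). MLXIPL, which encodes the carbohydrate response factor ChREBP, fell 1.77-fold in control (adjusted p = 3.54e-05), and its partner MLX rose 1.57-fold (adjusted p = 1.32e-08). No regulator differed between the lines under EtOH or DHT with DESeq2 or edgeR (0 and 3 had an unadjusted p under 0.05). Under FM 1 was higher (6.67%, beside 5.41%) and 1 lower (6.67%, beside 2.6%) in KO. In FM against EtOH 3 were higher (20%, beside 9.81%) and 4 lower (26.7%, beside 11.5%) in control. In KO 3 were higher (20%, beside 9.61%) and 2 lower (13.3%, beside 9.68%). SREBF1, the factor that drives fatty acid synthesis genes, was counted at 6948 and 8188 in Control EtOH and at 8394 and 7621 in Control DHT, and did not pass with DHT in either line.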

How the data were processed

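Stranded poly(A) RNA-seq libraries were made from 2 lines in 3 conditions, with 2 replicates each. The deposited values are read counts per Ensembl gene that the authors obtained by mapping to GRCh37 and counting. The submitters' processing notes name CASAVA 1.7, TopHat2 2.0.11 and HTSeq 0.5.3p3. The strand setting and Ensembl release were not given in the sources used here. HTSeq leaves out reads that fall on several genes or places, so overlapping genes and near-identical copies are counted low. Such reads and other tallies, 26.9% to 31.5% of all tallied reads in a library, were left out of totals and tests.

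Symbols, positions and exon lengths came from GENCODE v44 lifted to GRCh37, which held 55665 of 63677 identifiers. Genes with at least 10 summed counts were fitted with DESeq2 1.42.0 (R 4.3.3), following the study's methods, with a coefficient per group over all 12 samples, Wald tests, unshrunken log2 fold changes and Benjamini-Hochberg adjustment over all genes tested. The threshold was an adjusted p of at most 0.05 and a fold change of at least 1.5. Contrasts were DHT or FM against EtOH in each line, the differences between lines in these responses, and KO against control in each condition. Normalised read counts were divided by DESeq2 size factors, and TPM was computed from counts and exon lengths. The fits were tested on simulated data.

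Alternatives were edgeR 4.0.16 (quasi-likelihood, TMM), TMM size factors, other count filters, a replicate block, fits of the groups compared only, no fold change minimum, and leaving out each library. With 2 replicates per group, p-values rest on a spread shared by all groups, and counting precision is set by the totals given above. The members and lists were chosen with earlier results of these data known. Values in every sample are given for members whose response differed between the lines and for the largest change per role with DHT and between lines. Of other genes, the 3 with the largest change among those past both thresholds in each of 4 comparisons are named, and further regulators named here were chosen after their values were seen.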

Additional observations from a re-analysis of the deposited data

Results flagged for a closer look

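The DHT response of 3 genes differed between the lines by the test of the difference itself, given as KO minus control on the log2 scale. It was 0.99 for ELOVL2, -0.862 for FADS1 and -0.86 for FADS3. The FM response differed for 4 genes, by 0.967 for ELOVL2, 0.652 for ELOVL7, -1.158 for ACSL4 and -0.616 for ACADSB. ELOVL2 was lower in KO EtOH than in Control EtOH, the baseline that both of its responses share. No other member had a difference in response that passed, and with groups of 2 samples no single library was tested as standing apart from its group.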

How the results depend on the processing

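Of 79 calls of a member in a comparison, 59 held under each of the 19 alternatives, 20 were lost under at least 1, and none changed direction. Counts of members called moved by over 1.5 times in at least 1 comparison under 9 of the 19 alternatives. With no fold change minimum they were 25 for DHT in control, 22 for DHT in KO, 13, 17 and 14 for KO against control in EtOH, DHT and FM, and 23 for FM in control. With edgeR the lines differed in DHT response for 1 member and in FM response for 2, and with only the groups compared 1 differed in DHT response. Leaving out 1 library gave 1 to 4 for the difference in DHT response, 3 to 5 for KO against control in FM (3 without KO FM replicate 1) and 2 to 6 for the difference in FM response. The low values came without KO EtOH replicate 2 or Control DHT replicate 1 for DHT, and without Control FM replicate 1, either KO FM library or KO EtOH replicate 1 for FM. A group left with 1 library was assumed to vary like the others.

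The main fit did not pair samples by replicate number. Same-numbered libraries deviated together in 8 of 15 pairs of groups (correlations of -0.415 to 0.692), which cannot tell whether the samples were paired. The correlation was 0.692 for Control EtOH with Control DHT and 0.559 for Control EtOH with KO DHT, but -0.414 for Control EtOH with KO EtOH. With a replicate block 14 members were called for FM in KO (15 without it) and 5 for the difference in FM response (4 without it), and ACSL6 in FM in KO had an adjusted p of 0.0587. With the median transcript length in place of exon length, the mean TPM of 32 genes moved by more than the gene's standard deviation over all 12 libraries. That deviation spans both lines and all conditions. At this depth DECR1 stood at or under the floor and PLIN2 at 5 to 28 counts.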
